A study of Mus musculus with 24 samples.

Results

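The mitochondrial ribosomal proteins were taken as every protein-coding gene whose symbol begins with Mrpl or Mrps followed by a digit. The rule found 78 genes among the 47643 gene identifiers of the count files, 49 named for the large subunit (Mrpl) and 29 named for the small subunit (Mrps). The rule used names and no measured value. After the filter on low counts 77 members remained among 17178 genes tested, and Mrpl53 alone was left out.

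RNA-seq was performed on GFP-positive neurons sorted from L4 dorsal root ganglia (DRG) on the side opposite a sciatic nerve crush, 3 d after the crush, to ask how loss of Tsc2, a negative regulator of the growth kinase complex mTORC1, changes gene expression in nociceptors. Control mice carried Nav1.8-Cre, 1 floxed and 1 wild-type Tsc2 allele (Tsc2 flox/+) and the Rosa26-ZsGreen reporter. Nav-Tsc2 mice carried the same Cre and reporter with 1 floxed and 1 null allele (Tsc2 flox/null). Tsc2 was thus heterozygous in their cells without Cre. Where Cre acted, control cells kept 1 wild-type Tsc2 allele and Nav-Tsc2 cells kept no working allele. Each genotype had 4 mice of a mixed C57BL/6 and AJ background, aged 8 to 9 weeks, with males as replicates 1 and 2 and females as replicates 3 and 4, and each mouse gave 3 technical libraries of about 100 cells. Because the Nav1.8 driver is not restricted to unmyelinated pain fibres, the sorted cells were a mixture whose makeup could differ between genotypes. In such bulk samples fewer cells of a type and less RNA per cell cannot be told apart.

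The mitochondrial ribosome translates the few mRNAs encoded by mitochondrial DNA, all of which specify subunits of the respiratory chain and ATP synthase. Its proteins are encoded in the nucleus, made in the cytosol and imported, and are assembled on ribosomal RNAs transcribed inside the organelle. Some members descend from bacterial ribosomal proteins and keep their numbers, and others are found in mitochondria but not in bacteria. The large subunit joins amino acids and holds the exit tunnel, which opens at the inner membrane, and the small subunit reads the mRNA. Long sensory axons depend on mitochondria made largely in the soma.

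Counts on genes lay between 8339220 and 34228180 per library, and 47.6% to 55.9% of the entries of each file fell in rows that name no gene. Tsc2 was measured at 13.4, 24.7, 21.5 and 24.1 CPM (counts per 1000000, scaled between mice by the TMM method) in control replicates 1 to 4, and at 8.70, 8.51, 7.30 and 10.95 CPM in the Nav-Tsc2 replicates, with no overlap (log2 fold change -1.24, SE 0.22, adjusted p = 0.004 by edgeR). Of the markers checked, neuronal genes summed to 15768 to 25492 CPM in control and 14269 to 18295 CPM in Nav-Tsc2 mice. Much of this sum was Calca, at means of 10162 CPM in control and 2557 CPM in Nav-Tsc2 mice. Tubb3 (means of 5908 and 7774 CPM) and Uchl1 (1912 and 2637 CPM) were higher in Nav-Tsc2 mice. Without overlap between genotypes, 3 neuronal markers were higher and 2 lower. The 8 glial genes summed to 1474 to 1698 CPM in control and 503 to 820 CPM in Nav-Tsc2 mice without overlap, where S100b was the 1 gene called and Prx stayed under 1 CPM in every mouse. The 5 endothelial genes summed to 0.326 to 1.83 CPM in control and 5.81 to 15.5 CPM in Nav-Tsc2 mice, with Flt1 and Kdr called higher and Cldn5 and Cdh5 under 1 CPM in every mouse. Most of the Nav-Tsc2 sum was Flt1, at a mean of 0.034 CPM in control and 8.56 CPM in Nav-Tsc2 mice. Pecam1 had means of 0.42 CPM in control and 0.32 CPM in Nav-Tsc2 mice. The 6 macrophage genes summed to 1.74 to 7.07 CPM in control and 6.09 to 17.8 CPM in Nav-Tsc2 mice, with Cx3cr1 called higher, Adgre1 and C1qa under 1 CPM in every mouse, and C1qb at a mean of 1.75 CPM in control and 0.574 CPM in Nav-Tsc2 mice. No gene of the 5 fibroblast or 3 red blood cell markers was called, and among the 7 neuronal markers 1 was called higher (Prph) and 2 lower (among them Calca). The part of these shifts in the values of the mitochondrial ribosomal proteins was not tested.

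Most members differed little between genotypes. A gene was called when its adjusted p was under 0.05 and its log2 fold change was over 0.5 or under -0.5. By this rule 1 of the 77 members tested was lower in Nav-Tsc2 neurons, against 8.00% of all genes tested, and 2 were higher, against 9.12% of all genes. Together 3 members were called, against 17.1% of all genes. The member called lower was Mrps15 of the small subunit, and the members called higher were Mrpl9 of the large and Mrps35 of the small subunit.

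The promoters of the called members are shown because a shared sequence element would be looked for there. RefSeq windows of GRCm38.p6 were at hand for Mrps15 and Mrpl9, and the 250 bases before each annotated start are printed 5′ to 3′ on the gene's strand. For Mrps15 this is chr4:126046678-126046927 and for Mrpl9 it is chr3:94443086-94443335, both on the plus strand. Capitals mark a match to the core of the NRF-1 motif (GCATGCGC), a factor known for its binding to promoters of nuclear genes for mitochondrial proteins.
Mrps15 promoter: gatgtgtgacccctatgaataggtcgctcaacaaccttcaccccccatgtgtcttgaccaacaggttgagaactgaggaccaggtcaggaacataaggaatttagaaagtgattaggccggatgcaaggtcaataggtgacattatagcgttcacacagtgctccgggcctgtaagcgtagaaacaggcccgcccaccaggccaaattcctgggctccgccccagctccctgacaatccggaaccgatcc
Mrpl9 promoter: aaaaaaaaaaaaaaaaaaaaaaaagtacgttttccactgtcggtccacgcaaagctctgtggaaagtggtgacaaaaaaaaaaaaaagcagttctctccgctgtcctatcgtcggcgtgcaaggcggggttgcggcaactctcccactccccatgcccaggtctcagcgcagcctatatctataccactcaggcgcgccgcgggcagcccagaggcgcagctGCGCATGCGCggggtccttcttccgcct

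Within the 300-base windows, which also take in 50 bases after the start, 3 motifs were searched on both strands over 75 windows of 69 members. The NRF-1 core occurred in 8 member windows (10.7%) and in 2.71% of all 32851 promoter windows. The GABPA core CCGGAAG, the site of an ETS factor also known as NRF-2, occurred in 26 member windows (34.7%) and in 8.86% of all windows. The YY1 core AAGATGGCG occurred in 8 member windows (10.7%) and in 1.40% of all windows. None of the 3 cores lay in the Mrps15 window. In the Mrpl9 window the NRF-1 core, whose letters nearly mirror themselves, matched on both strands in overlapping positions within the capitals. The motif matches are a description of these letters and say nothing about binding.

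Mrps15 (ENSMUSG00000028861) is the mitochondrial relative of bacterial ribosomal protein S15 and lies at chr4:126046925-126055532 on GRCm38. It was measured at 68.3, 55.3, 53.9 and 49.8 CPM in control replicates 1 to 4 and at 30.9, 39.2, 36.03 and 39.5 CPM in Nav-Tsc2 replicates 1 to 4. Every Nav-Tsc2 mouse lay below every control mouse, with means of 56.8 ± 8.02 and 36.4 ± 3.96 CPM (SD, n = 4 each). The log2 fold change was -0.64 (SE 0.13, adjusted p = 0.0072). No annotated exon of another gene overlaps Mrps15, and none of its 50-base windows was found in another annotated transcript. The call was lost in females analysed alone, where the log2 fold change was -0.46 and the adjusted p was 0.17.

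Mrpl9 is the relative of bacterial L9 and lies at chr3:94443318-94451130. Its level was 24.8, 31.7, 23.6 and 24.98 CPM in control replicates 1 to 4 and 44.8, 48.3, 32.0 and 36.3 CPM in the Nav-Tsc2 replicates. The genotypes were separated by a narrow gap, between control replicate 2 at 31.7 CPM and Nav-Tsc2 replicate 3 at 32.0 CPM. The log2 fold change was 0.62 (SE 0.16, adjusted p = 0.022). The adjusted p rose to between 0.052 and 0.072 without control replicate 1, control replicate 4, Nav-Tsc2 replicate 1 or Nav-Tsc2 replicate 2, and to 0.19 in females alone.

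Mrps35 is a small subunit protein of mitochondria without a bacterial counterpart and lies at chr6:147042764-147073991. Its counts were low, with 5.91, 8.48, 8.32 and 6.61 CPM in the control replicates and 12.8, 10.65, 11.9 and 13.4 CPM in the Nav-Tsc2 replicates. All Nav-Tsc2 mice exceeded all control mice, with means of 12.2 ± 1.19 and 7.33 ± 1.27 CPM (SD, n = 4 each). The log2 fold change was 0.73 (SE 0.18, adjusted p = 0.020). The call was lost without Nav-Tsc2 replicate 1 or 4 (adjusted p = 0.062 each) and in males or females alone (adjusted p = 0.18 and 0.21).

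A further 6 members passed the adjusted p but not the fold threshold. With the 3 called members this made 9 of 77 past an adjusted p of 0.05, 6 lower and 3 higher, against 21.1% of all genes tested. All 6 belong to the large subunit. They are shown by mouse beside the called members in the plot of members past the adjusted p.

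**Figure D1:**
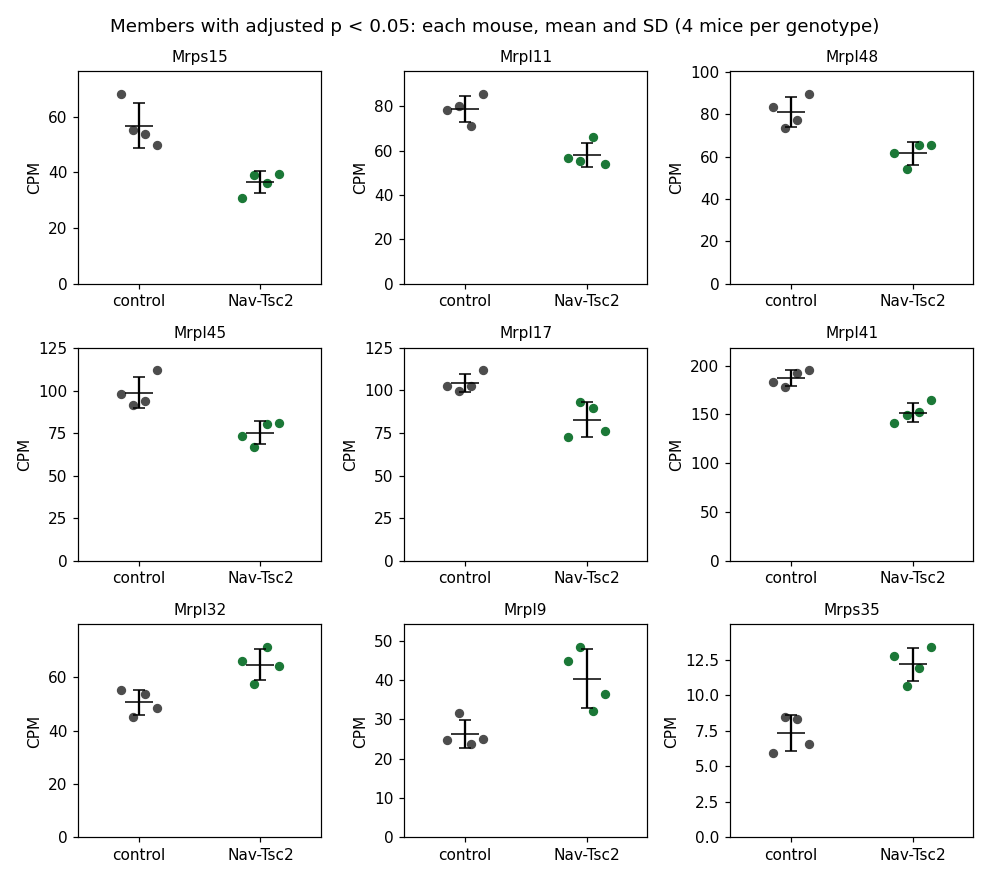
CPM (vertical axis, from 0) of the 9 members with an adjusted p under 0.05 in each of 4 control and 4 Nav-Tsc2 mice, with points for mice and bars for mean and SD. In each panel the genotypes do not overlap, with Mrps15, Mrpl11, Mrpl48, Mrpl45, Mrpl17 and Mrpl41 lower and Mrpl32, Mrpl9 and Mrps35 higher in Nav-Tsc2 mice.

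Mrpl11, a protein of the stalk base where translation factors bind, lies at chr19:4962147-4966999. It was at 78.1, 80.0, 71.1 and 85.7 CPM in control and 56.5, 55.4, 66.1 and 54.0 CPM in Nav-Tsc2 replicates. Its log2 fold change was -0.44 (SE 0.10, adjusted p = 0.013), and the genotypes did not overlap. It passed the fold threshold in males alone and without Nav-Tsc2 replicate 3, and it stayed past the adjusted p in 16 of 18 alternative fits.

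Mrpl45, which faces the inner membrane at the exit tunnel, lies at chr11:97315716-97329920. Its level was 98.1, 91.9, 94.0 and 112 CPM in control and 73.1, 67.2, 80.5 and 80.9 CPM in Nav-Tsc2 replicates. The log2 fold change was -0.39 (SE 0.099, adjusted p = 0.021). Mrpl48 at chr7:100545751-100608301 had 83.4, 73.6, 77.4 and 89.8 CPM in control and 61.5, 54.1, 65.4 and 65.3 CPM in Nav-Tsc2 replicates, a log2 fold change of -0.40 (SE 0.10, adjusted p = 0.022). Both genes were lower in every Nav-Tsc2 mouse than in every control mouse. They passed the adjusted p in 14 (Mrpl45) and 13 (Mrpl48) of 18 alternative fits.

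Mrpl41, a large subunit protein of mitochondria without a bacterial counterpart, lies at chr2:24974117-24975098 and had the highest level per length of all members. It was at 183, 178, 193 and 195 CPM in control and 141, 150, 152 and 165 CPM in Nav-Tsc2 replicates. The log2 fold change was -0.30 (SE 0.078, adjusted p = 0.023), the smallest difference of any member past the adjusted p, and 11 of 18 alternative fits kept it there. Mrpl17, the relative of bacterial L17, lies at chr7:105803206-105811099. It was at 103, 99.9, 103 and 112 CPM in control and 72.6, 93.3, 89.5 and 75.9 CPM in Nav-Tsc2 replicates. Its log2 fold change was -0.33 (SE 0.10, adjusted p = 0.043), and it stayed past the adjusted p in 6 of 18 alternative fits.

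Mrpl32, known as a substrate of the mitochondrial m-AAA protease, was the 1 member of this group that was higher. It lies at chr13:14608184-14613165 and was at 55.1, 45.1, 53.9 and 48.5 CPM in control and 66.1, 57.4, 71.2 and 64.2 CPM in Nav-Tsc2 replicates. The lowest Nav-Tsc2 value exceeded the highest control value by little. The log2 fold change was 0.35 (SE 0.10, adjusted p = 0.039), and 9 of 18 alternative fits kept it past the adjusted p.

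Over all members the genotypes did not overlap in 12 members that were lower and 3 that were higher in Nav-Tsc2 mice. The same held for 12.3% of all genes tested in the lower and 14.6% in the higher direction. Of the 12, 11 belonged to the large and 1 to the small subunit.

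The subunits were then compared, as the names allow. In the large subunit 35 of the 48 members tested had a log2 fold change below 0 and 13 above, with a median of -0.13. In the small subunit 15 of 29 lay below 0 and 14 above, with a median of -0.031. The median over all 77 members was -0.093, and that over all 17178 genes tested was 0.0082, where 49.3% lay below 0. With scaling by DESeq2 size factors or upper quartiles the medians of the large subunit (-0.15 and -0.16) and the small subunit (-0.044 and -0.059) kept their sign. The small subunit's median changed sign in 3 of 18 alternative fits, where it reached at most 0.022 (without Nav-Tsc2 replicate 1). The names do not match the structure for 3 genes, since Mrps18a and Mrps30 sit in the large subunit and Mrps36 in neither. Assigned by structure, the small subunit had 26 members with a median of -0.015 and the large subunit 50 tested members with a median of -0.13. Whether the subunits' medians differ was not tested, since genes are not replicates of the mice.

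**Figure D2:**
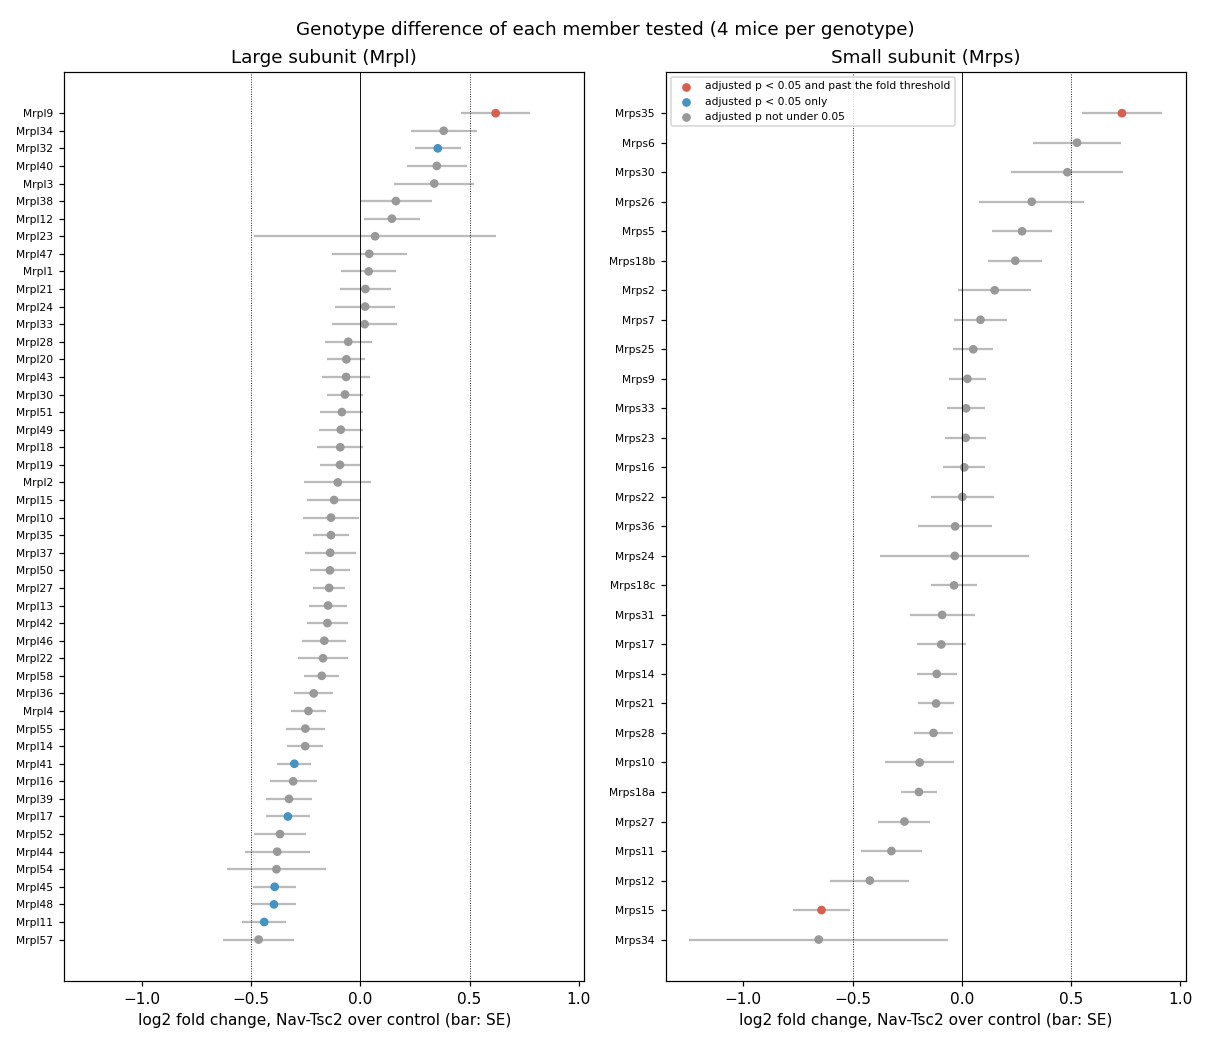
Log2 fold change (horizontal axis) with its SE for the 48 large and 29 small subunit members tested, in order of size, with dotted lines at the fold threshold of 0.5 in either direction. Red points mark the 3 called members and blue points the 6 that passed the adjusted p only.

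The members lay in a narrow band. The middle of the members' distribution, from the lower to the upper quartile, ran from -0.21 to 0.025, and that of all genes from -0.39 to 0.44. A log2 fold change within 0.25 of 0 was found for 49 of 77 members (63.6%) and for 33.4% of all genes. The share was similar among cytosolic ribosomal proteins (66.2%) and nuclear-encoded subunits of oxidative phosphorylation (60.0%), so the narrow band was not particular to the members. The members were also measured with less error than most genes, with a median SE of 0.11 against 0.27 for all genes tested. The median coefficient of variation of a member was 12.4% between the 3 libraries of a mouse. It was 9.71% between control mice and 9.28% between Nav-Tsc2 mice. The values between mice were taken after summing the 3 libraries of each mouse, so they are not on a par with that between single libraries.

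**Figure D3:**
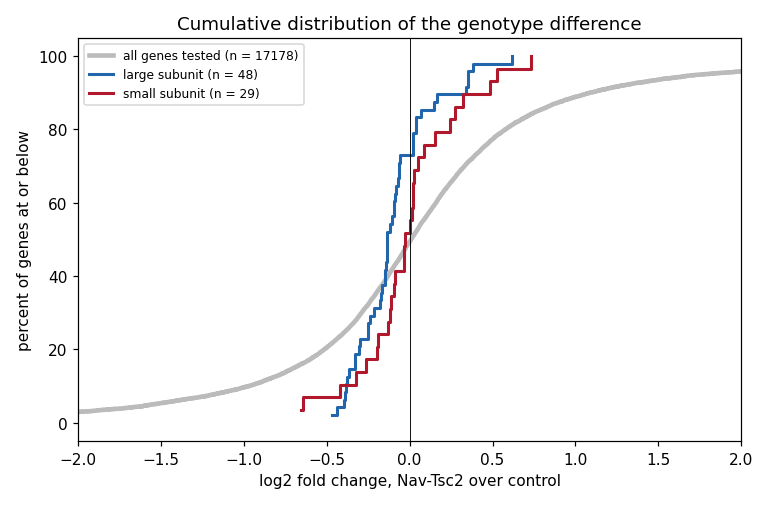
Percent of genes (vertical axis) at or below each log2 fold change (horizontal axis, shown from -2 to 2) for the large subunit, the small subunit and all genes tested. The curves of both subunits are steeper than that of all genes, and the large subunit crosses 50% at -0.13.

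Members that keep a bacterial number (Mrpl1 to Mrpl36 and Mrps1 to Mrps21) were set beside those with higher numbers. Among the 28 large subunit members with bacterial numbers the median log2 fold change was -0.093, and 18 lay below 0. Among the 20 tested with higher numbers it was -0.17, and 17 lay below 0. In the small subunit the median was -0.065 for 16 members with bacterial numbers and 0.0024 for 13 with higher numbers. These medians are descriptions of the names' classes.

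The CPM of all members was summed in each mouse. CPM is a share of the counts of a mouse, and the paper reports larger cell bodies of unmyelinated pain neurons in Nav-Tsc2 mice. The sums therefore do not give the amount of RNA per neuron. The large subunit summed to 3874, 3744, 3870 and 3850 CPM (3835 ± 61.5, SD, n = 4) in control replicates 1 to 4. It summed to 3296, 3453, 3756 and 3528 CPM (3508 ± 192, SD, n = 4) in Nav-Tsc2 replicates 1 to 4. The groups overlapped by Nav-Tsc2 replicate 3, a female, which lay just above control replicate 2, a male.

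The small subunit summed to 1494, 1495, 1569 and 1571 CPM in control and 1390, 1435, 1522 and 1462 CPM in Nav-Tsc2 replicates. Female Nav-Tsc2 replicate 3 again exceeded both male control mice. Within each sex both Nav-Tsc2 mice lay below both control mice for either subunit, with 2 mice a group. The mean of the large subunit was 11.4% lower in Nav-Tsc2 males and 5.66% lower in Nav-Tsc2 females, and that of the small subunit was 5.49% and 5.00% lower. On the log2 scale the small subunit sum differed by -0.078 between genotypes, but the mean of its members' log2 CPM by -0.0062. Mrps18a alone made up 217 of 1532 CPM in control mice, and with members assigned by structure the small subunit sum differed by -0.063 and the log2 ratio of the subunits by -0.069 (against -0.052).

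The ratio of the large to the small subunit sum was 2.59, 2.50, 2.47 and 2.45 in control and 2.37, 2.41, 2.47 and 2.41 in Nav-Tsc2 replicates. The mean ratio was 2.50 ± 0.063 in control and 2.41 ± 0.040 in Nav-Tsc2 mice (SD, n = 4 each), and the groups overlapped. In males the ratio was 6.27% lower in Nav-Tsc2 mice without overlap, and in females it was 0.719% lower with overlap. No p is given for these sums, which are dominated by the most abundant members.

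**Figure D4:**
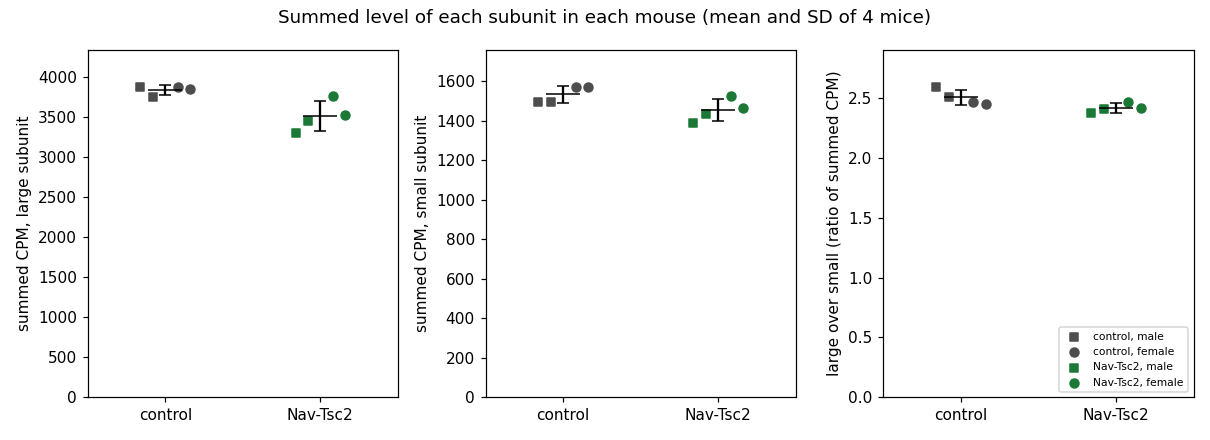
Summed CPM of the large subunit (left), the small subunit (middle) and their ratio (right) in each mouse, on axes from 0, with squares for males, circles for females and bars for mean and SD of 4 mice. Nav-Tsc2 males have the lowest sums, and the sums of Nav-Tsc2 replicate 3 fall within the control range.

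Effects in males and females were compared gene by gene. Both sexes gave a log2 fold change of the same sign in 59 of 77 members, 43 below and 16 above 0. Their medians were -0.13 in males and -0.061 in females. In the test of the interaction between genotype and sex 0 members passed the adjusted p in edgeR and 0 in DESeq2, and 3 had an unadjusted p under 0.05 in each. The lowest adjusted p of a member was 0.37, and 1 of 17178 genes passed.

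Levels between members were compared per length of annotated exon, as RPKM. This length joins all annotated exons of a gene and can exceed that of the RNA present, so the order of levels depends on it. The control median was 28.0 RPKM in the large and 16.9 RPKM in the small subunit, and 28.4 and 17.9 RPKM in Nav-Tsc2 mice. The 5 members with the highest control level were Mrpl41 (211 ± 9.18 RPKM), Mrpl28 (161 ± 16.6), Mrpl36 (131 ± 8.41), Mrps21 (129 ± 1.64) and Mrpl20 (120 ± 8.79 RPKM, SD, n = 4 each). The mean of Mrpl41 stood apart from that of Mrpl28 by more than their SDs, while Mrpl36, Mrps21 and Mrpl20 lay within about their SDs of one another. The same 5 members led in Nav-Tsc2 mice. Ranked by CPM with no length, 3 of the 5 remained among the first 5.

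Among these abundant members, Mrpl28, Mrpl36, Mrps21 and Mrpl20 did not pass the test between genotypes. Mrpl28 was at 241, 244, 203 and 202 CPM in control and 188, 243, 223 and 203 CPM in Nav-Tsc2 replicates (log2 fold change -0.056, adjusted p = 0.77). For Mrpl36 the value was -0.21 on the log2 scale (adjusted p = 0.13), for Mrps21 -0.12 (adjusted p = 0.35) and for Mrpl20 -0.064 (adjusted p = 0.66).

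At the other end, the 3 tested members with the lowest control level were Mrpl23 (0.072 ± 0.013 RPKM), Mrps34 (0.18 ± 0.082 RPKM) and Mrps35 (0.85 ± 0.15 RPKM, SD, n = 4 each). Mrpl53, which failed the filter, had 10 counts over all 24 libraries. For 3 of these 4 genes much of the sequence is shared with other annotated genes. Exons of Nme3 and Mapk8ip3 overlap 77.8% of the exon bases of Mrps34, and those of Gm42688 and Ccdc142os overlap 88.0% of the exon bases of Mrpl53. A read that could belong to overlapping genes, or that aligns to several places, is entered by HTSeq in rows that name no gene, so the low levels of these members are uncertain.

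Mrpl23 shows this for a copy elsewhere. The gene, the relative of bacterial L23 at the exit tunnel, lies at chr7:142532686-142540747, and 51.7% of the 50-base windows of its coding transcripts occur exactly in the processed pseudogene Mrpl23-ps1. In transcript Mrpl23-201 all 392 windows of the 441 coding bases occur there. The first 50 coding bases, in which a 50-base read could not be placed in 1 gene only, are printed because every window of the coding sequence behaves the same way.
Mrpl23 coding bases 1 to 50: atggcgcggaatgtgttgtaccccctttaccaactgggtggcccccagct
Mrpl23 was at 0.271, 0.341, 0.416 and 0.382 CPM in control and 0.329, 0.601, 0.343 and 0.203 CPM in Nav-Tsc2 replicates, with overlapping genotypes. Over the members, 13 had more than 10% of their windows in copies elsewhere, and 10 had more than 20% of their exon bases under exons of another gene. Among the members with an adjusted p under 0.05, Mrpl41 had 11.3% of its windows in a copy.

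**Figure D5:**
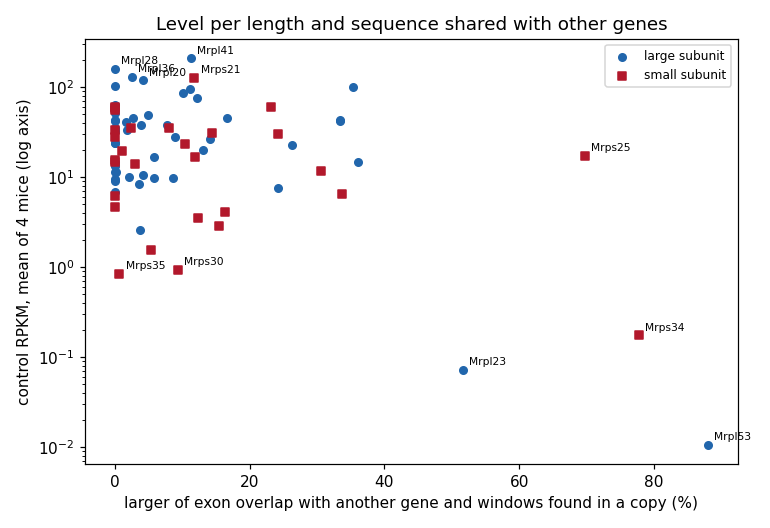
Control level per length (vertical log axis, RPKM, mean of 4 mice) of each of the 78 members against the larger of its exon overlap with another gene and its windows found in a copy (horizontal axis, percent). Mrpl23, Mrps34 and Mrpl53 combine the lowest levels with high shares, while Mrps35 and Mrps30 are low with shares under 10%.

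Mrps18a, Mrps18b and Mrps18c are 3 relatives of bacterial S18, of which a ribosome holds different ones at different sites. Mrps18a was at 204, 205, 225 and 233 CPM in control and 173, 190, 187 and 206 CPM in Nav-Tsc2 replicates, with a log2 fold change of -0.20 (SE 0.084, adjusted p = 0.13). Mrps18b was at 25.6, 22.3, 28.1 and 23.5 CPM in control and 28.8, 28.3, 33.7 and 27.0 CPM in Nav-Tsc2 replicates, with a log2 fold change of 0.24 (SE 0.12, adjusted p = 0.20). Mrps18c had a log2 fold change of -0.036 (SE 0.11, adjusted p = 0.86). The genotypes overlapped for each of the 3 genes. Per length, Mrps18c (61.0 ± 5.43 RPKM) and Mrps18a (58.8 ± 3.90 RPKM) were level within their SDs in control mice, and Mrps18b was lower at 11.9 ± 1.21 RPKM (SD, n = 4 each). Of the windows of Mrps18b, 27.2% occurred in a copy and 46.5% in overlapping genes.

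The partners of the mitochondrial ribosome were counted in the same fit, where 17.1% of all genes tested were called in either direction. The 5 mitochondrial ribosomal proteins with other names had a median log2 fold change of -0.19, and none was called. Of these, Ptcd3 passed the adjusted p without the fold threshold (log2 fold change -0.47, adjusted p = 0.0058). It was at 66.2, 76.2, 64.3 and 70.8 CPM in control and 51.4, 46.4, 51.7 and 50.6 CPM in Nav-Tsc2 replicates, with no overlap.

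Among 28 genes for assembly of the mitochondrial ribosome and modification of its RNA, the median log2 fold change was 0.083. Calls numbered 2 in each direction, or 14.3% of the list against 17.1% of all genes tested. Mpv17l2, an inner membrane protein known to take part in assembly of the ribosome, was at 8.10, 7.10, 8.99 and 8.43 CPM in control and 21.9, 26.4, 19.9 and 22.9 CPM in Nav-Tsc2 replicates (log2 fold change 1.48, SE 0.15, adjusted p = 0.00022). Mrm2, a methyltransferase of the large ribosomal RNA, was at 13.3, 10.5, 15.4 and 14.3 CPM in control and 8.06, 7.54, 7.84 and 8.58 CPM in Nav-Tsc2 replicates (log2 fold change -0.74, SE 0.17, adjusted p = 0.013). The genotypes did not overlap for either gene. The other two called genes of the list were Mrm1, which was higher, and Tfb1m, which was lower.

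Of 15 mitochondrial translation factors, with a median log2 fold change of -0.088, 1 was called (6.67%, against 17.1% of all genes tested). Guf1, a GTPase related to bacterial LepA, was at 10.98, 15.0, 8.25 and 14.4 CPM in control and 35.2, 35.0, 27.0 and 30.2 CPM in Nav-Tsc2 replicates (log2 fold change 1.39, SE 0.20, adjusted p = 0.0014). Its genotypes did not overlap. Of 17 mitochondrial tRNA synthetases, with a median of 0.060, 1 was called (5.88%).

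The templates of the mitochondrial ribosome are 13 mRNAs of mitochondrial DNA, of which 7 passed the filter and 6 had no count or almost none. The 6 lie side by side on mitochondrial DNA, from base 7013 to base 10173. Reads that align to several places are entered in rows that name no gene, so these counts do not show that the 6 mRNAs were absent. The cause was not tested, and the values below cover 7 of the 13 templates. All 7 lay above 0, with a median log2 fold change of 0.43, and 3 (42.9%) were called higher, against 9.12% of all genes tested. mt-Co1, the core subunit of cytochrome oxidase, was at 3021, 2932, 2541 and 2991 CPM in control and 4362, 4566, 3064 and 4945 CPM in Nav-Tsc2 replicates, with no overlap (log2 fold change 0.56, SE 0.14, adjusted p = 0.019). The other two called were mt-Nd5 and mt-Nd6. Without single mice the number called ranged from 0 to 4.

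For comparison, the fit gave 3 lower and 0 higher calls (3.90%) among 77 cytosolic ribosomal proteins tested, with a median log2 fold change of -0.010. Some of these genes had low counts, with control means of 0.53 and 0.62 CPM among them. Sequence shared with other genes was not checked for this list. Among 80 nuclear-encoded subunits of oxidative phosphorylation tested, the test called 1 lower and 7 higher, 54 lay above 0 and the median was 0.11. In either direction 10% of this list was called, against 17.1% of all genes tested. The mitochondrial ribosomal proteins had 27 of 77 above 0. These counts stand side by side, and the difference between the lists was not tested.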

How the data were processed

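The authors sorted about 100 cells per library, amplified cDNA with a SMARTer Ultra Low kit, which does not mark strand, and sequenced 50-base single reads. They aligned reads to mm10 with STAR and counted them with HTSeq; versions are not given in the sources used here. The authors deposited raw counts per gene and library, without normalization. A series table of their own DESeq2 comparison, with 8 columns of normalized values per mouse, was not used. Symbols, coordinates and exon lengths came from GENCODE vM21 (GRCm38), which matched 47224 of 47643 identifiers. The 3 libraries of each mouse were added together and tested in edgeR 4.0.16 (R 4.3.3) with filterByExpr, TMM scaling and the quasi-likelihood F-test, with Benjamini-Hochberg adjustment over all 17178 genes. Adjusted p-values in the text come from this test unless another is named. SE was the log2 fold change over the square root of F. RPKM was CPM per 1000 exon bases. Alternatives included DESeq2 1.42.0 and limma 3.58.1. Reads carried no molecular identifiers. The labels do not say whether mice shared litters.

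The named genes were Tsc2, called members, the 5 highest and 3 lowest tested members by RPKM, the Mrps18 genes, members past the adjusted p alone (up to 6), members that failed the filter, and in each partner list the called gene of smallest adjusted p per direction. Some genes that meet the rule or belong to the lists are left unnamed. Ptcd3, Mrm1, Tfb1m, mt-Nd5, mt-Nd6, Mrps30 and the named markers are not named by this rule, and their choice followed a look at their values. Members and lists were chosen with earlier results of these data known.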

Additional observations from a re-analysis of the deposited data

Results flagged for a closer look

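Each group of 4 mice was checked for a mouse that stood far from the other three relative to the range of the group. Of 54 groups checked, 5 held such a mouse, where chance alone marks about 1 group in 20. In control mice these were Mrpl9 in replicate 2 at 31.7 CPM, the highest of its group, Mrps21 in replicate 3 at 96.8 CPM, the highest, and Mrpl20 in replicate 4 at 177 CPM, the lowest. Mrpl53, with 10 counts in all, stood out in control replicate 1 at 0.034 CPM and in Nav-Tsc2 replicate 4 at 0.12 CPM.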

How the results depend on the processing

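The medians and sums of the members kept their sign under DESeq2, both other scalings, no low-count filter, sex as a covariate and libraries weighted equally. Leaving out 1 mouse at a time, members called lower ranged from 1 to 4 and higher from 0 to 3, large subunit called lower from 0 to 2 and higher from 0 to 1, and small subunit called lower from 1 to 2 and higher from 0 to 2. The most called lower came without Nav-Tsc2 replicate 2 and the fewest called higher without Nav-Tsc2 replicate 1. In males alone 2 members were called lower (1 large) and 1 higher (0 small), and in females alone 0 in either direction and either subunit. Calls over all genes were also fewer, with 2584 of 17741 in males and 494 of 17625 in females, against 2941 of 17178 in all mice, and ranged from 2145 to 3502 without 1 mouse. With an adjusted p under 0.05 and no fold threshold 6 members were lower (5 large) and 3 higher (2 large), and under 0.01 with the threshold 0 were higher in either subunit. A fit of 24 libraries that took the mouse as a random effect gave 2 small subunit members called higher.

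Equal replicate numbers did not pair the mice: deviations of same-numbered mice correlated at 0.0049, 0.060, -0.046 and 0.053 across 6896 genes, and not every mouse correlated best with its own number. With the replicate block 2445 genes were called over all genes tested, against 2941 without it. In that fit 1 member was called higher and 0 of the small subunit (Mrps35 had an adjusted p of 0.066 by edgeR), 1 of the mitochondrially encoded mRNAs was called, and the small subunit's median was 0.0012.

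Among the partner lists, called genes without 1 mouse ranged from 0 to 1 for the other mitochondrial ribosomal proteins, 3 to 5 for assembly, 1 to 2 for translation factors, 1 to 1 for tRNA synthetases and 0 to 4 for mitochondrially encoded mRNAs. Females alone gave 0 for assembly, translation factors, tRNA synthetases and mitochondrially encoded mRNAs, and males alone 0 for tRNA synthetases. DESeq2 called 2 translation factors and 2 tRNA synthetases, upper-quartile factors 1 other mitochondrial ribosomal protein. Without the fold threshold 1 other mitochondrial ribosomal protein and 2 tRNA synthetases passed, and under 0.01 there were 2 for assembly, 0 tRNA synthetases and 0 mitochondrially encoded mRNAs.

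As a mean of log2 CPM in place of the log2 sum, the small subunit differed by -0.0062 (against -0.078) and the log2 ratio of subunits by -0.099 (against -0.052). The log2 ratio of the sums was -0.093 in males alone and -0.010 in females alone. In order of level 3 of the first 5 remained with CPM. Members far from the threshold changed sign: Mrpl28 in females (0.072) and without Nav-Tsc2 replicate 1 (0.0031, the highest of a range from -0.13), Mrpl20 in females (0.057), Mrps18c without Nav-Tsc2 replicate 2 (0.021), and Mrpl23 with the replicate block (-0.016), in females (-0.54), with libraries weighted equally (-0.026) and without control replicate 1 (-0.041) or Nav-Tsc2 replicate 2 (-0.27, in a range up to 0.27). The small subunit's median ran from -0.073 to 0.022 without 1 mouse. The causes were not tested. Mrpl23, Mrps34 and Mrpl53 had the fewest counts of the members.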
